A study of Mus musculus with 6 samples.

Results

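This report describes 5 long non-coding RNA (lncRNA) transcripts assembled in mouse pancreatic islets at the loci of the islet transcription factors Pax6, Isl1 and Nkx2-2. A transcript was a member if its interval overlapped the gene body of Pax6, Pax6os1, Isl1 or Nkx2-2os (GENCODE M21, GRCm38) more than that of any other gene. Of 3093 deposited transcripts, 2 lay in Pax6 and 1 each in Pax6os1, Isl1 and Nkx2-2os. The study compared islets of C57BL/6 mice after 8 weeks on normal chow (NCD, 3 libraries) with islets of C57BL/6 mice after 8 weeks on the diet labelled "high-fed" (HFD, 3 libraries). The labels name no other allele or agent, and give neither the age of the mice nor the number of mice per library. The db/db mice of the series title were not analysed here. The table holds 1 FPKM per diet group (fragments scaled by transcript length and by the mapped total), so no value has a replicate error and no difference could be tested.

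Pancreatic islets hold the insulin-secreting beta cells and the glucagon- and somatostatin-secreting alpha and delta cells. Pax6 encodes a paired-box and homeodomain factor, Isl1 a LIM-homeodomain factor and Nkx2-2 an NK2-class homeodomain factor. All of them are needed for islet endocrine cells to form, and they are kept on in mature cells, where they help to hold beta cell genes active. Pax6os1 and Nkx2-2os are annotated non-coding genes on the opposite strand of Pax6 and Nkx2-2, which they partly overlap. Transcripts are called after the gene they lie in, which does not mean that the messenger RNA of that gene was measured, nor that its fragments were left out.

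The beginnings of both antisense genes lie inside the factor genes, and so does the coding end of Isl1 inside the Isl1 transcript. The following sequences (GRCm38) are shown for that reason. The Pax6os1 promoter, from 250 bases before to 50 bases after the annotated start at chr2:105670281-105670580 on the minus strand (RefSeq), lies in the first intron of the longest Pax6 isoforms. Capitals mark TAAT on either strand, the core letters that many homeodomains recognise. The stretch around the Nkx2-2os start, at chr2:147183998-147184132 on the plus strand (RefSeq), is coding sequence of Nkx2-2 read from the opposite strand. Capitals there begin at the annotated Nkx2-2os start. The Isl1 coding end, at chr13:116299480-116299596 on the minus strand (GENCODE M21 transcripts), lies wholly in the interval of the deposited Isl1 transcript, and its stop codon is in capitals.
Pax6os1 promoter: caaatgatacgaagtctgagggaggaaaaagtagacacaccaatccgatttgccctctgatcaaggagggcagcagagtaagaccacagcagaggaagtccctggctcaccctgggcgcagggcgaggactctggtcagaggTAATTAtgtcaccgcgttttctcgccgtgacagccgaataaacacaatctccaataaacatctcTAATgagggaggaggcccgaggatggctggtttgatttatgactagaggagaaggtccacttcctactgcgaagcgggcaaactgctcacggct
Nkx2-2os start: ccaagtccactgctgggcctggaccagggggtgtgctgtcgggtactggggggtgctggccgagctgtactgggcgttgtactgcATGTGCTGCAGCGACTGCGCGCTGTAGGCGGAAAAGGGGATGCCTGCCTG
Isl1 coding end: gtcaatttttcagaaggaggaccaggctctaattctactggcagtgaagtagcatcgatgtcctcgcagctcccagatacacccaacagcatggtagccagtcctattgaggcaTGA
The Pax6os1 window held 3 matches to TAAT over both strands, and the first 2 overlap each other. In windows of the same length, the first Pax6 promoter held 2, the Isl1 promoter 2, the Nkx2-2 promoter 1 and the Nkx2-2os promoter 8. Of 32851 RefSeq promoters of 300 bases, 58.0% held at least 1, so a match by itself is common. These are descriptions of letters and say nothing of binding.

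All 5 transcripts had a lower value in HFD than in NCD, and 1 of them, the Isl1 transcript, was at least 2-fold lower. Of all deposited transcripts 80.0% were lower in HFD at any size, 41.9% were at least 2-fold lower and 6.27% at least 2-fold higher, so the members' direction was that of most transcripts. Ratios are given as log2(HFD + 0.1) minus log2(NCD + 0.1), with values in FPKM, a scale on which changes of low transcripts look smaller than they are. The median log2 ratio was -0.53 over the 5 members (range -1.26 to -0.41) and -0.82 over all 3093. After subtracting the median of the table, the Isl1 and Pax6os1 transcripts stayed below 0, at -0.44 and -0.06. The others lay above it, the Pax6 pair at 0.41 and 0.32 and the Nkx2-2os transcript at 0.29. The split of the whole table moved likewise, from 1297 lower and 194 higher by 2-fold to 464 and 493. In whole islets, fewer cells of a type and less RNA per cell cannot be told apart.

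**Figure D1:**
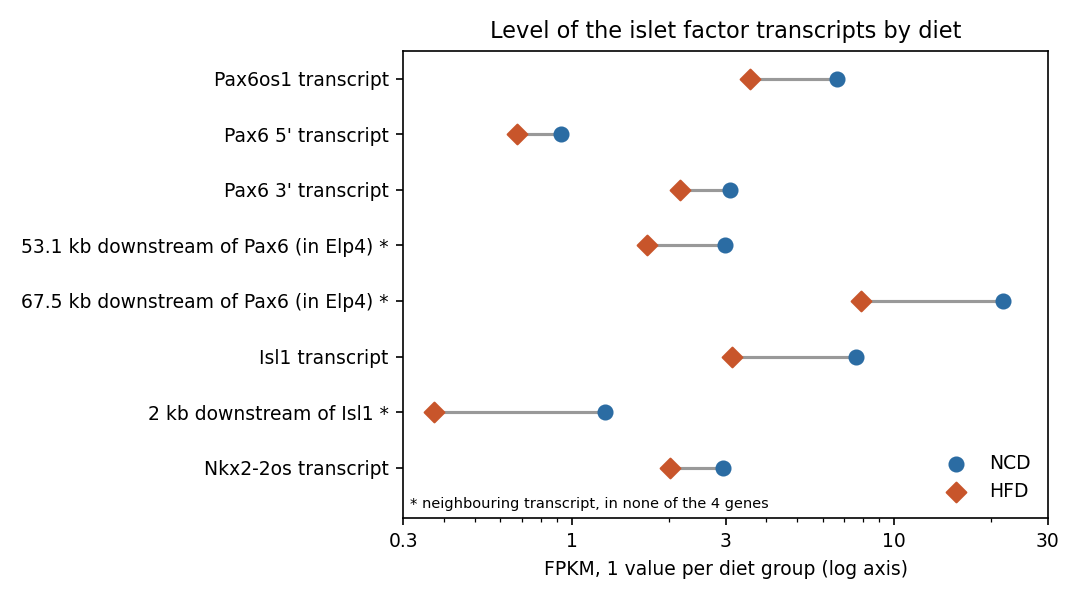
FPKM of the 5 member transcripts and of 3 neighbouring transcripts within 100 kb of Pax6, Isl1 or Nkx2-2, on a log axis. Circles are the NCD value and diamonds the HFD value, 1 value per group with no replicate error. The HFD value is the lower one in each of the 8, as in 80.0% of all deposited transcripts.

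The order of the members by level differed between the diets only at the top. In NCD the Isl1 transcript was highest at 7.65 FPKM, followed by Pax6os1 at 6.63. In HFD the Pax6os1 transcript led at 3.57 FPKM and the Isl1 transcript came next at 3.15. The Pax6 3′ transcript, the Nkx2-2os transcript and the Pax6 5′ transcript followed in that order in both columns. Without values per library it is not known which neighbours in this order differ beyond their spread.

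The Isl1 transcript lay over the 3′ part of its gene. It ran on chromosome 13 from 116298281 to 116301502, in Isl1 (116298281 to 116309689, minus strand). One end of the interval was the annotated 3′ end of Isl1 to the base. From there the interval of 3222 bases spanned the whole last exon, exon 6 of 1316 bases with 114 coding bases and the rest 3′ untranslated. It went on through 1906 bases of intron 5. Splicing inside the interval is not known. Messenger RNA of Isl1 would also give fragments in exon 6, and the value cannot be told apart from it. The value was 7.65 FPKM on NCD and 3.15 on HFD with a log2 ratio of -1.26. Among all transcripts it ranked at the 90.3th percentile of level in NCD and at the 85.2th in HFD. Of the 353 transcripts whose interval touches an exon of a coding gene, 15.0% had a lower ratio than this one, and 21.2% were at least 2-fold lower in HFD. The coding-exon class as a whole had a median log2 ratio of -0.41.

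A neighbouring transcript began 2037 bases beyond the Isl1 3′ end, in no annotated gene. It covered 1652 bases at 1.27 FPKM on NCD and 0.374 on HFD with a log2 ratio of -1.53. Both the Isl1 transcript and the one next to it were thus more than 2-fold lower in HFD. At least 2-fold lower were 41.9% of all transcripts and 32.6% of those within 5 kb of a gene, the neighbour's class. Lying so close together, the pair may not be independent values. The next transcripts on that chromosome lay over 500 kb away in Parp8, which encodes an enzyme of the ADP-ribosyltransferase family. Their log2 ratios were -0.76, at 2.39 and 1.37 FPKM, and -0.18, at 3.49 and 3.08.

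At Pax6, the 2 transcripts lay at opposite ends of the gene (chromosome 2, 105668900 to 105697364, plus strand). The Pax6 5′ transcript ran from 105673066 to 105674478. Its near edge was 4.2 kb past the first annotated start, and all of its 1413 bases lay in the untranslated first exon of a coding Pax6 isoform. It was the lowest member in both columns, at 0.926 FPKM on NCD and 0.674 on HFD (log2 ratio -0.41). These levels were at the 12.4th and 18.2th percentiles of the table. The ratio was also close to the middle of its class, with 49.9% of coding-exon transcripts lower.

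The Pax6 3′ transcript ran from 105697135 to 105700676. Only 230 of its 3542 bases (6.5%) lay in Pax6, all in the 3′ untranslated region, and 3312 lay beyond the gene. It filled most of the 3663-base gap to the 3′ end of Elp4, which encodes a subunit of the Elongator complex and is read towards Pax6, and stopped 351 bases short of it. Its value was 3.10 FPKM on NCD and 2.17 on HFD with a log2 ratio of -0.49. Of the coding-exon transcripts, 41.9% had a lower ratio. Among the 89 transcripts that cover the 3′ end of a coding gene, as this one and the Isl1 transcript do, the median log2 ratio was -0.46 and 23 were at least 2-fold lower. The Pax6 3′ transcript was thus near the middle of that class and the Isl1 transcript below its lower quartile of -1.08.

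The Pax6os1 transcript lay upstream of Pax6. It ran over 420 bases of chromosome 2, from 105583303 to 105583722, inside an intron of Pax6os1 (105536080 to 105670330, minus strand). This gene overlaps the first 1431 bases of Pax6. The transcript was 85.2 kb before the Pax6 start and 1101 bases from the nearest Pax6os1 exon. It was at 6.63 FPKM on NCD and 3.57 on HFD with a log2 ratio of -0.88. These levels were at the 88.0th percentile of the table in both columns. The ratio was close to the intronic median of -0.98, with 55.4% of the 2054 intronic transcripts lower. From the steps in low FPKM values, these levels stood for about 54.7 fragments in NCD and 38.1 in HFD. The 95% counting interval of the log2 ratio of scaled fragments was -1.54 to -0.28, around a value of -0.91. It includes the table's median of -0.82 and leaves out 0. It holds counting error alone, without variation between mice, so it is no test of a diet effect. Paupar, a lncRNA gene between this transcript and the Pax6 start, held 0 deposited transcripts.

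The Nkx2-2os transcript was the nearest one to Nkx2-2, in whose own gene body 0 deposited transcripts lay. It covered 423 bases of chromosome 2, from 147230650 to 147231072, in the first intron of Nkx2-2os (147184083 to 147331681, plus strand). It was 46.6 kb from the Nkx2-2os start and 36.4 kb before the most upstream Nkx2-2 start (147177546 to 147194243, minus strand). Its value was 2.95 FPKM on NCD and 2.02 on HFD with a log2 ratio of -0.53, with 72.0% of intronic transcripts lower. These levels stood for about 24.9 and 22.0 fragments. The 95% counting interval of the log2 ratio of scaled fragments was -1.45 to 0.33 around -0.55, which includes 0. Variation between mice is not part of such intervals, which rest on counting error alone. Whether they include or leave out 0 is therefore no test of a diet effect.

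**Figure D2:**
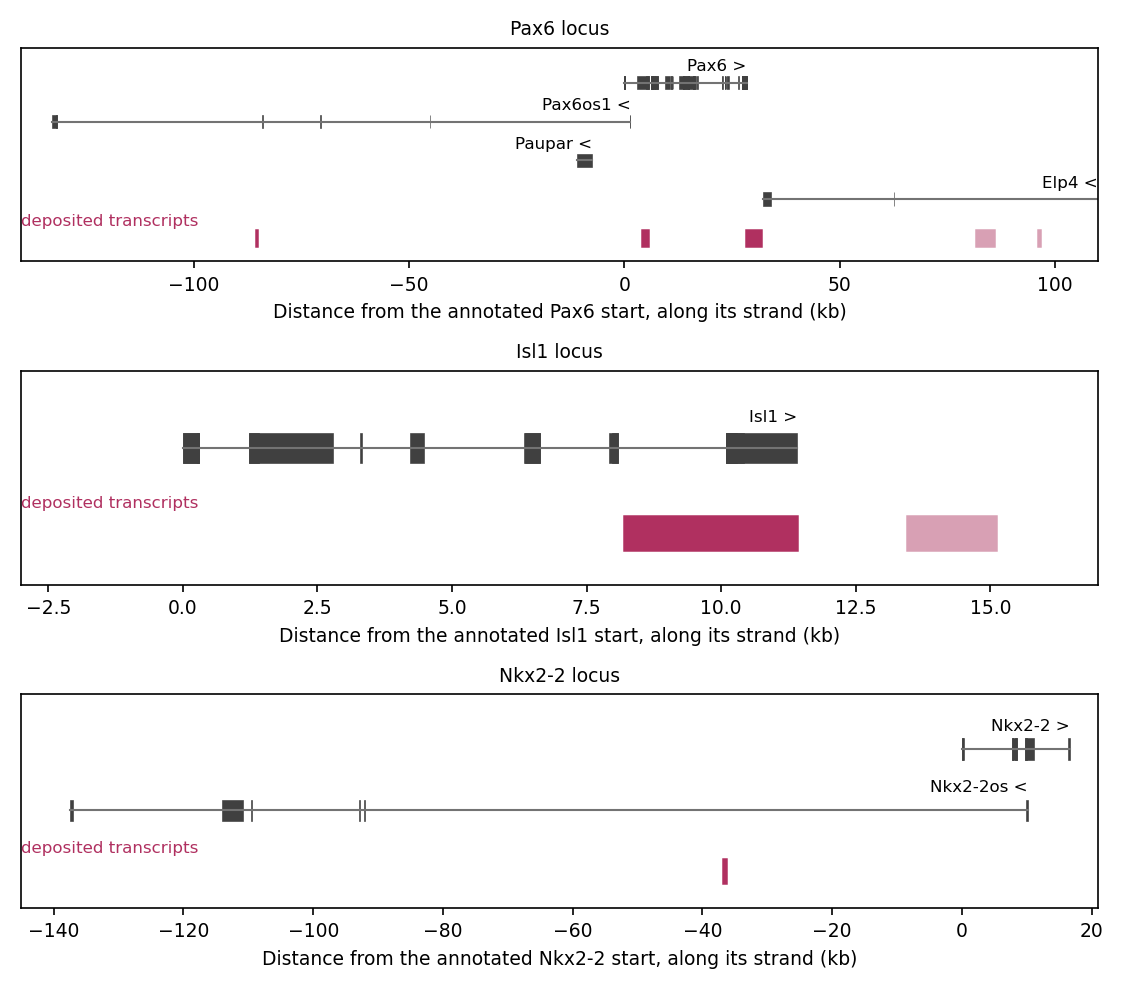
Positions of the deposited transcripts (dark for members, pale for neighbours, short ones drawn at a minimum width) below the annotated genes, in kb from the start of Pax6, Isl1 and Nkx2-2 along each factor's strand; boxes are exons of all isoforms and > or < marks the reading direction. The Isl1 transcript ends at the gene's 3′ end, whereas the Pax6os1 and Nkx2-2os transcripts lie 85.2 and 36.4 kb before the factor genes' starts.

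Downstream of Pax6, 2 transcripts lay in introns of Elp4, a region known to hold distant enhancers of Pax6. The nearer one, 53.1 kb past the Pax6 3′ end, spanned 4349 bases. It was at 2.99 FPKM on NCD and 1.71 on HFD with a log2 ratio of -0.77. The farther one, at 67.5 kb, spanned 423 bases on chromosome 2 from 105764899 to 105765321 and was the most abundant transcript of the region. It was at 21.7 FPKM in NCD, the 97.8th percentile, and 7.89 in HFD (log2 ratio -1.45). That ratio lay between the lower quartile of the intronic class, -1.53, and its median of -0.98. In that class 48.8% were at least 2-fold lower in HFD. At about 184 and 86.2 fragments, the 95% counting interval of the farther transcript's ratio was -1.85 to -1.08. That interval lies below the table's median, which the intervals of the Pax6os1 and Nkx2-2os transcripts include. It rests on more fragments than those and is narrower. Variation between mice is left out of it too, and a diet effect was not tested. The next transcript was 680.5 kb from Pax6, in Ccdc73, at 5.50 FPKM on NCD and 0.369 on HFD. Beyond the Nkx2-2os transcript, the nearest to Nkx2-2 lay 763.8 kb upstream in the lncRNA gene 9030622O22Rik, at 2.50 and 1.13 FPKM. The following ones lay 1864.8 kb downstream in Slc24a3, an ion exchanger gene, at 1.91 and 0.785 FPKM, and 2054.2 kb downstream outside genes, at 11.4 and 8.96 FPKM.

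**Figure D3:**
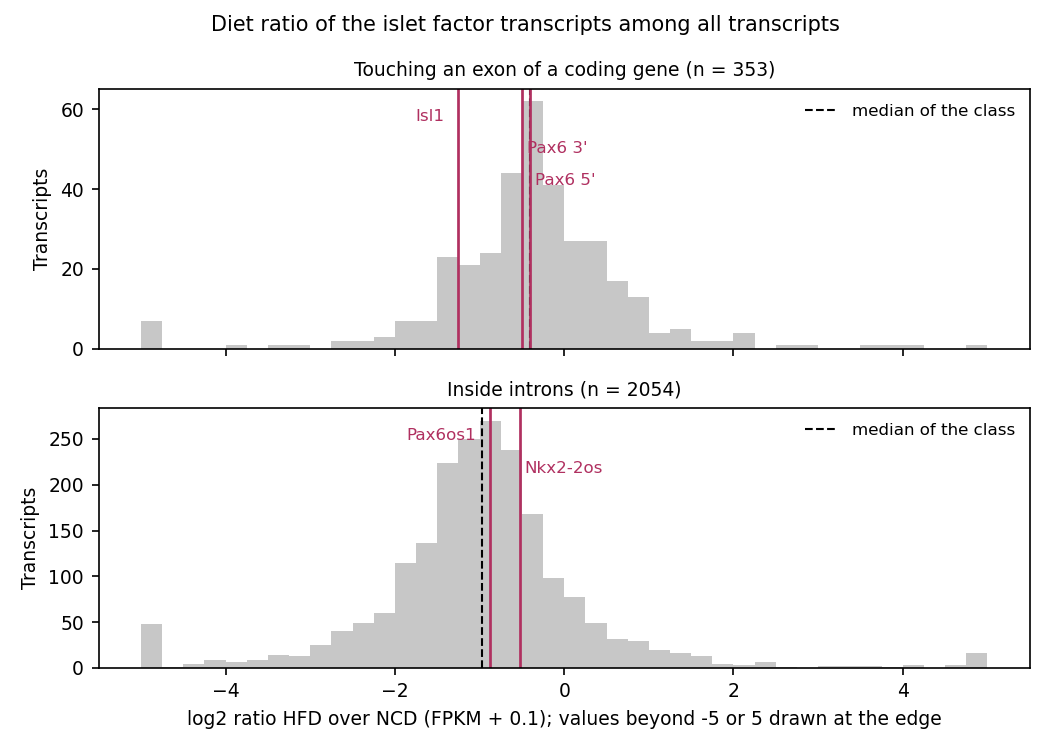
Histograms of the log2 ratio of HFD over NCD for the 353 transcripts touching an exon of a coding gene (top) and the 2054 transcripts inside introns (bottom), with the members as lines and the class medians dashed. The Pax6 pair sits near the class median of -0.41 and the Isl1 transcript left of it, while both antisense-gene transcripts sit to the right of the intronic median of -0.98.

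The table gives no strand, but its transcript identifiers carry an order. On 21 of the 22 chromosomes with transcripts, start positions rose with the identifier number except for a single drop, which split each chromosome into a first and a second run. Of 1239 first-run transcripts that lay in genes of 1 strand, 1063 (85.8%) were in plus-strand genes. Of 1116 such second-run transcripts, 970 (86.9%) were in minus-strand genes. The 4 transcripts whose start and end are both those of an annotated transcript all had the run of its strand. No source used here says how the identifiers were assigned, so the run is a description of the table and not a measured strand.

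All 5 members were in the second run. For Isl1 and Pax6os1, both minus-strand genes, the run was the one most transcripts of such genes had. The Pax6 pair and the Nkx2-2os transcript lie in plus-strand genes and were in the run of the opposite strand, like 13.7% of the 2355 transcripts compared. For the Nkx2-2os transcript the opposite strand is that of Nkx2-2, and for the Pax6 3′ transcript it is that of Elp4. Among coding-exon transcripts the run went against the gene's strand in 159 and with it in 89, so the Pax6 pair is of the commoner kind there and the Isl1 transcript of the rarer.

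The median diet ratio of these kinds differed by position. Intronic transcripts whose run matched the gene's strand had a median log2 ratio of -1.0 (1850 transcripts), and those whose run went against it -0.53 (131 transcripts). Over coding exons the medians were -0.61 and -0.29. Among transcripts that cover the 3′ end of a coding gene, as the Isl1 and Pax6 3′ transcripts do, the order was the other way, with -0.27 for 18 whose run matched and -0.48 for 30 whose run did not. The lower quartile of those 18, the kind of the Isl1 transcript, was -1.21, close to its ratio of -1.26. Of the 18, 6 were at least 2-fold lower. The Pax6os1 and Isl1 transcripts, with the run of their gene's strand, had the lowest ratios of the members, -0.88 and -1.26. The other 3 were at -0.41 to -0.53. These comparisons were made after the values were seen and were not tested.

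**Figure D4:**
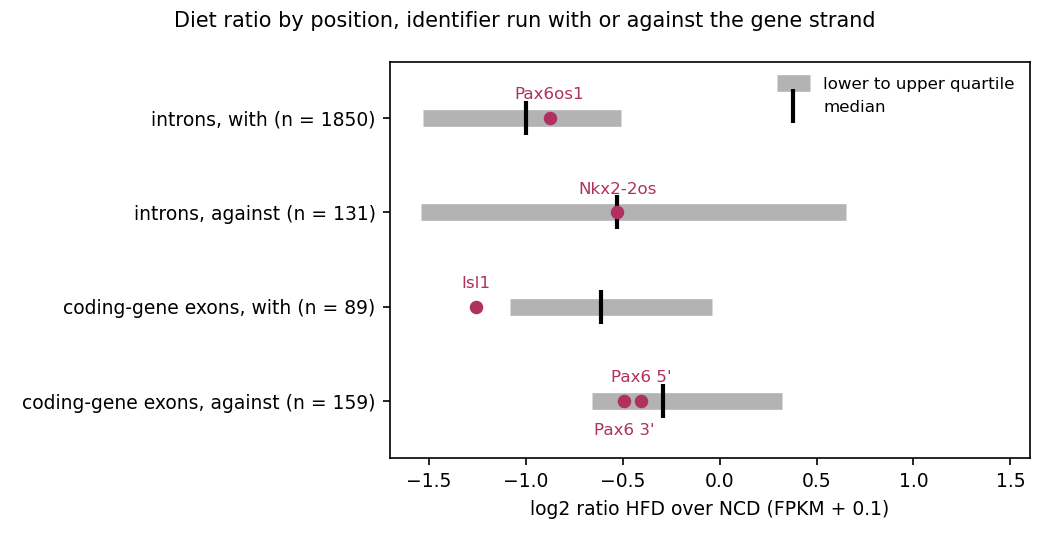
Log2 ratio of HFD over NCD for transcripts in introns and over coding-gene exons, split by whether the identifier run matched the strand of the gene holding them. Bars span the lower to the upper quartile, ticks are medians, and points are the 5 members; the Isl1 point alone lies outside its bar, below it.

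Other islet transcription factor genes gave a wider view. Of 44 listed factors, 6 held a transcript, 16 transcripts in all counting the Isl1 one and the Pax6 pair. The share of all annotated genes that held a transcript was not counted, for this list or those below. All 16 were lower in HFD, against 80.0% of the table, and 8 of the 16 were at least 2-fold lower, against 41.9%. Their median log2 ratio was -1.11 against -0.82 for the table. Those in Bach2 and Tcf7l2 were intronic, a class with 48.8% at least 2-fold lower and a median of -0.98. The rest touched coding exons, a class with 21.2% and -0.41. The 16 lie in only 6 genes, several of them in the same gene, so they are not independent values. After subtracting the table's median, 5 of the 16 lay above 0 and 11 did not. The list's highest transcript by mean level, a 218-base one in an intron of Bach2, which encodes a transcriptional repressor, was at 56.5 FPKM in NCD and listed at 0 in HFD. Its span is shorter than the fitted mean fragment lengths of 298 bases in NCD and 288 in HFD, so its FPKM and its rank are uncertain. A 394-base intronic transcript of the same gene was at 6.52 and 2.19 FPKM (log2 ratio -1.53). Zbtb20, a zinc-finger repressor gene, held overlapping isoforms at 12.5 and 6.79 FPKM (-0.87) and at 5.48 and 2.25 FPKM (-1.25). The transcripts not yet described lay in Bach2, Zbtb20, Tcf7l2, the Wnt pathway effector, and St18, a zinc-finger factor gene. Within 1000 kb of the 44 genes lay 143 transcripts near 36 of them. Of these, 61 (42.7%) were at least 2-fold lower and 10 (6.99%) at least 2-fold higher, shares near the 41.9% and 6.27% of the whole table, with a median of -0.90.

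Of 16 listed islet-linked lncRNA genes, 12 were found by name in the annotation. Of these, 4 held 1 transcript each, and 3 of the 4 were lower in HFD (median -0.70), beside 80.0% lower over the table. Beside Pax6os1 and Nkx2-2os, they were the imprinted Rian, at 47.1 and 51.9 FPKM, and the snoRNA host Gas5, at 1.00 and 0.172 FPKM. The tissue label could not be checked with this table. Of 44 marker genes for 10 cell types, among them Ins1, Ins2, Gcg and Sst, the only one that held a transcript was the duct marker Epcam, at 21.8 FPKM on NCD and 5.01 on HFD for 257 intronic bases, again a span shorter than the mean fragment. Its part in the results above was not tested.

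The transcripts most like each member over the 2 columns were found by the distance between their log2 (FPKM + 0.1) values. Nearest to the Isl1 transcript was one in Bckdhb, an enzyme gene of branched-chain amino acid breakdown, at a distance of 0.022, then one in Immp2l at 0.126. Nearest to Pax6os1 were transcripts in Patl1 (0.010) and Sik3 (0.039), and among those close to Nkx2-2os was one in Ikzf3 (0.021). The Pax6 3′ transcript was closest to transcripts in Slc3a1 (0.029) and Egfr (0.032), and the Pax6 5′ transcript to those in Lonp1 (0.070) and Eda (0.106). With only 2 columns such neighbours are common: 104 transcripts lay within 0.25 of the Pax6 3′ transcript, 105 of the Nkx2-2os, 35 of the Pax6os1, 28 of the Isl1 and 18 of the Pax6 5′ transcript.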

How the data were processed

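The deposited table lists lncRNA transcripts with an interval and FPKM in 2 columns, 1 per diet group, per the file headers. Tools for alignment, assembly and quantification were not given in the sources used here, nor how 3 libraries became 1 value. Genome builds GRCm38 and mm10 stand in the submitters' processing notes. Because the columns hold 1 value per group, the planned model across libraries was replaced by values, log2 ratios with a pseudocount of 0.1 FPKM and a 2-fold size rule. The filter, 0.1 FPKM in at least 1 group, removed 0 of them. Intervals were placed against GENCODE M21 (GRCm38) with Python 3.11.15 and pandas 2.3.3, as whole intervals without regard to splicing. Ties in overlap went to the first gene listed.

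The members and lists were chosen with earlier results of these data known. Named were all members, the 3 transcripts nearest to each factor gene, up to 5 of each list by mean level, and the 2 most similar transcripts in named genes, of which 1 is not reported here. The lists were islet transcription factors, islet lncRNAs, hormone and secretion genes, and cell type markers. Base composition and repeats of the intervals were planned but not analysed here. The identifier runs and the class covering 3′ ends of coding genes were added after the values were seen.

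Depth was sought in the low values of transcripts of 300 to 1000 bases. With a total and a normal fragment length distribution fitted to a random part, values below 12 fragments in the rest were within 0.15 of whole in 110 of 139 for NCD (79.1%) and 209 of 211 for HFD (99.1%) against 30.0% by chance. The totals fitted to all of them, in units of 1e6 fragments, were 66.5 and 80.0. Estimated fragments are given for spans of 400 to 1000 bases, assume unspliced transcripts counted from 1 pool per column, and carry exact (Clopper-Pearson) intervals.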

Additional observations from a re-analysis of the deposited data

How the results depend on the processing

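No paired analysis was possible because each diet has a single deposited value, which also means that no replicate could be left out. With a pseudocount of 0.01 the members' median log2 ratio was -0.55 and that of transcripts within 1000 kb of islet factor genes -0.94. With a pseudocount of 1 they were -0.39 and -0.61, the table held 689 transcripts at least 2-fold lower and 101 higher, and 30 of the lower ones were near factor genes; a larger pseudocount shrinks ratios by construction. Scaling turned the sign of the members' median. After median centring it was 0.29, 0 were at least 2-fold lower and 2 of 5 lower at all; the table split into 464 lower and 493 higher, and near factor genes the median was -0.08 with 19 lower. After quantile normalization the same values were 0.28, 0, 2, 461, 500, -0.07 and 18. A 4-fold rule left 0 members, 365 lower, 90 higher and 15 lower near factor genes. A window of 250 kb gave 25 lower and a median of -0.88, and spans of at least 400 bases left 109 higher, both from fewer transcripts. Assigning by any overlap gave the same number of members, 5. The member ratios kept their sign under both pseudocounts and without the filter; 3 of 5 turned positive under either scaling.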

Other observations

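Of 34 listed genes of hormone production and secretion, other than transcription factors, 33 were annotated and 3 held a transcript. The share over all annotated genes was not counted. They held 5 transcripts, 3 of them lower in HFD (60.0%, against 80.0% of the table), with a median log2 ratio of -0.50. The L-type calcium channel gene Cacna1d held an intronic one at 2.49 FPKM on NCD and 0.328 on HFD (-2.60). Its relative Cacna1c held 3, at 1.62 and 1.12 FPKM (-0.50), 1.42 and 0.930 FPKM (-0.56) and 0.442 and 0.983 FPKM (1.00). A transcript over exons of Abcc8, which encodes the sulfonylurea receptor of the beta cell potassium channel, was at 0.104 FPKM on NCD and 0.821 on HFD (2.17), the largest rise of this list. Its NCD value is near the filter and pseudocount of 0.1 FPKM, so the size of that rise is uncertain. The 3 Cacna1c transcripts overlap one another, so their values are not independent.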
